A study of Homo sapiens with 4 samples.

Results

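The cytosolic ribosomal protein genes were examined in RNA-seq of MDA-MB-231 cells transfected with miR-217 mimic or with mimic NC. The members were all genes whose symbol is RPL or RPS followed by a number, with a final A or X where the name carries one, together with RPLP0, RPLP1, RPLP2 and RPSA. This gave 77 of the 32955 genes listed, of which 46 encode proteins of the large ribosomal subunit and 31 encode proteins of the small subunit. All 77 passed the filter on low values, a mean of at least 1 RPKM (reads on a gene per kilobase of its exons and per 1000000 reads counted on genes). The position of every member overlapped the gene of that symbol in the GENCODE 29 annotation of GRCh38.

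MDA-MB-231 is an established human breast cancer line without the estrogen receptor. Of the 4 libraries, 2 came from cells that received mimic NC, a control oligonucleotide, and 2 from cells that received miR-217 mimic, a synthetic RNA that acts as the microRNA miR-217. Both oligonucleotides were from RiboBio and were delivered with the RiboFECT CP kit, which the control cells received too, while the dose and the time after transfection are not given in the sources used here. Each group holds a replicate 1 and a replicate 2, and the labels say neither whether these were separate cultures nor what the numbers mark, so that p-values measure only the spread between these libraries, which may be technical. Members were therefore compared in 2 ways, miR-217 mimic against mimic NC and number 2 against number 1.

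Reads counted on genes ranged from 32635814 in miR-217 mimic replicate 2 to 57933183 in mimic NC replicate 1. VIM, CD44, AXL, CAV1, MSN and TGFBI, which are described as high in this line, had mean levels between 6.55 and 127 RPKM. The median over all genes past the filter on low values was 5.02 RPKM, and CAV1 (6.55 RPKM) and AXL (7.33 RPKM) lay close to it. The luminal markers ESR1, GATA3, CDH1 and KRT19 lay between 0.058 and 0.72 RPKM, FOXA1 was at 1.51 and ERBB3 at 2.21 RPKM, and PGR was not analysed here. CDKN2A, which MDA-MB-231 is usually said to have lost, was at 10.5 to 13.2 RPKM, which goes against the label, and the cause was not tested. Libraries of mRNA do not hold mature miR-217, so that the transfection itself could not be checked in them. RPKM is a share of each library, and in RNA of whole cultures a change in the makeup of the cells and a change of RNA per cell cannot be told apart.

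Ribosomal proteins assemble with ribosomal RNA in the nucleolus into the small subunit, which reads the mRNA, and the large subunit, which joins amino acids into protein. Most of their mRNAs begin with a 5′ terminal oligopyrimidine (TOP) tract, a C followed by a run of C and T, through which mTORC1 signalling and LARP1 control their translation together. In breast cancer cells, as in other growing cells, they are among the most abundant mRNAs, and several of the proteins act outside the ribosome, such as RPL5 and RPL11, which bind MDM2.

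The tract is shown here because it is the sequence that the members share. The RefSeq promoter table (GRCh38.p14) held a start for 62 of the 77 members, and 15 were not in it. A listed start with C followed by at least 4 bases of C or T was found for 46 of these 62 members (74.2%), against 7.58% of the genes tested and 5.14% of all genes in the table. The sequence CTTTC lay within 20 bases of a listed start, on the strand of the gene, in 54.8% of the 62 members and in 7.09% of all genes in the table. The longer CTCTTTC, which contains it, did so in 21.0% and in 0.835%. The first 4 sequences are from the members with the highest and the lowest mimic differences, the next 3 from members with low values in number 2, and the last 2 from members without the tract at a listed start. In RPL10A a run of C and T begins a few bases after the listed start. The tract was thus counted by the listed start alone. Each covers 15 bases before and 15 bases from the listed start, 5′ to 3′, and the capitals mark the run of C and T that begins at the start, where there is one.
RPS27 (chr1:153990747-153990776, plus strand): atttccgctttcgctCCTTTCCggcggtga
RPLP0 (chr12:120201097-120201126, minus strand): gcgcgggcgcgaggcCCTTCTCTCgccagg
RPS21 (chr20:62387088-62387117, plus strand): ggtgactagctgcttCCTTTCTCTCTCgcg
RPL38 (chr17:74203663-74203692, plus strand): aacggaagtctcgttCTTTTTCgtcctttt
RPS14 (chr5:150449725-150449754, minus strand): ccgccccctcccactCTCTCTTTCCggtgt
RPL22 (chr1:6199581-6199610, minus strand): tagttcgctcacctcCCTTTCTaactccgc
RPL39 (chrX:119791616-119791645, minus strand): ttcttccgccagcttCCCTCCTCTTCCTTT
RPL10A (chr6:35468386-35468415, plus strand): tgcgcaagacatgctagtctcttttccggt
RPS29 (chr14:49598696-49598725, minus strand): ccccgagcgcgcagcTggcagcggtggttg

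The ribosomal protein genes were highly expressed but far from equal in level. Their median was 84.0 RPKM, with 90.1 RPKM for the large subunit and 78.9 RPKM for the small subunit, while the median over the 13871 genes tested was 5.02 RPKM. Mean levels ran from 1.91 RPKM for RPS29 to 662 RPKM for RPL5, a 347-fold range among proteins that stand at 1 copy per ribosome with few exceptions.

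In the large subunit, RPL5, which carries the small ribosomal RNA of that subunit into the ribosome with RPL11, stood at 626 and 670 RPKM with mimic NC against 642 and 710 RPKM with miR-217 mimic. RPL23A, a protein at the mouth of the exit tunnel, had 525 and 511 RPKM with mimic NC against 568 and 476 RPKM with miR-217 mimic. These genes were the highest of the family in every library, and their ranges did not meet. RPL22 followed at 394, 298, 416 and 302 RPKM and RPL12, at the base of the stalk, at 270.5, 287, 277 and 309 RPKM, in the order mimic NC 1 and 2 and miR-217 mimic 1 and 2. In RPL22 the replicates of a group lay further apart than the groups did. RPL10, a late-joining protein of the large subunit, was the lowest large subunit gene with 5.96 to 6.99 RPKM, next to RPL18 with 6.62 to 8.80 RPKM and RPL28 with 9.93 to 11.7 RPKM.

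In the small subunit, RPS6, the substrate of the S6 kinases, was highest with 288 and 264 RPKM in mimic NC and 299.7 and 275 RPKM in miR-217 mimic. RPS2, which lies where mRNA enters, had 239, 249, 258 and 270 RPKM in the same order, and RPS3A had 216, 207, 226 and 221 RPKM. The ranges of RPS6 and RPS2 met, so that these neighbours were not separated by the spread of the libraries, while those of RPS2 and RPS3A did not meet. The lowest were RPS29 with 1.80 to 2.00 RPKM and RPS28 with 3.42 to 4.60 RPKM, and their ranges did not meet. Every member had between 270 and 111985 reads in each library.

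**Figure D1:**
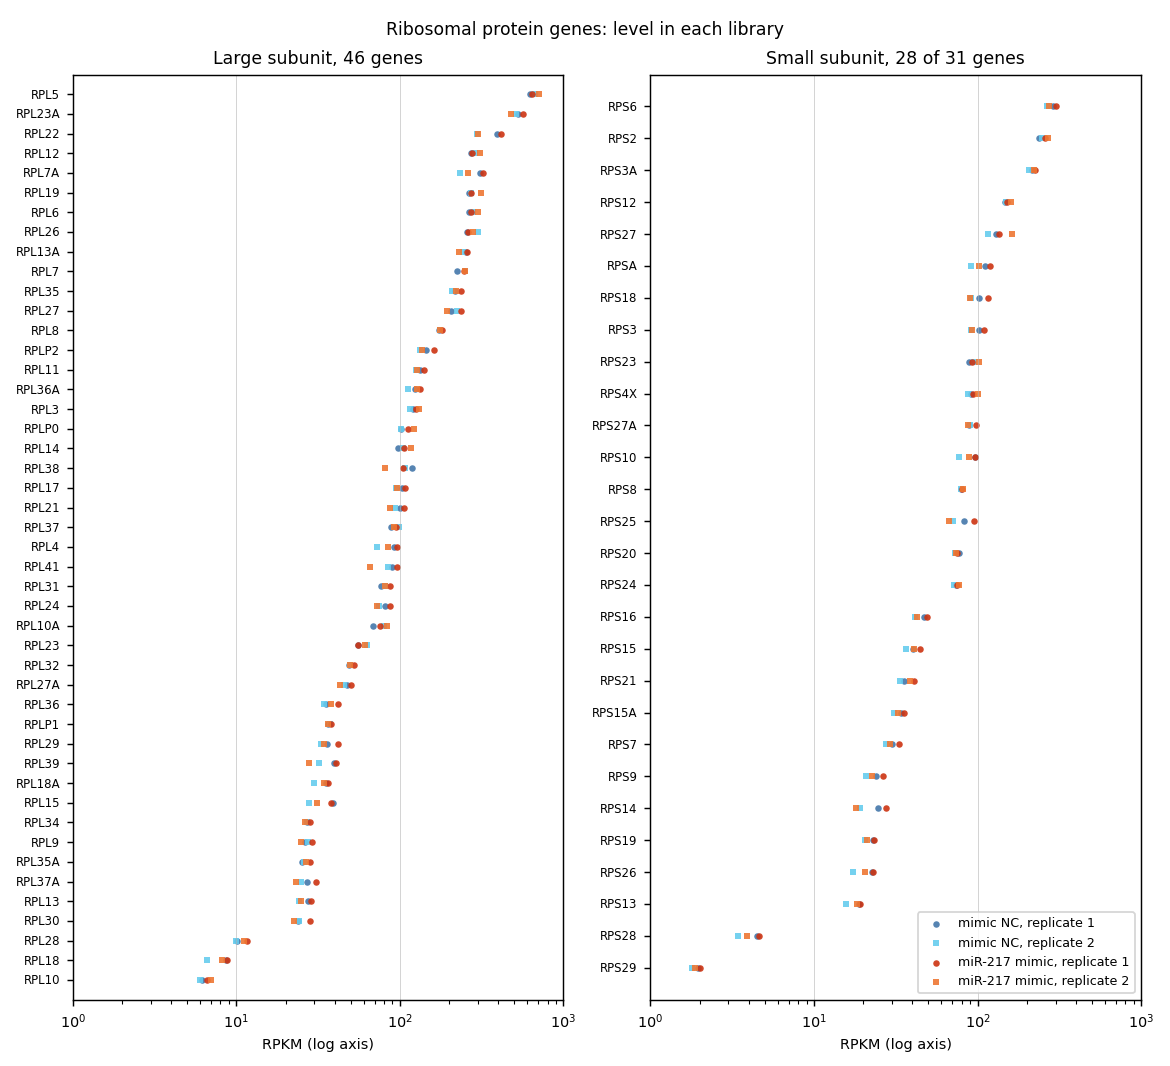
Level of ribosomal protein genes in the 4 libraries in RPKM on a log axis, with 46 large subunit genes on the left and 28 of 31 small subunit genes on the right, each ordered by its mean. Points are single libraries, coloured by group and shaped by replicate number, and the means run from 1.91 RPKM (RPS29) to 662 RPKM (RPL5).

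Levels within the family rest in part on how genes are counted. The summed exon length by which RPKM divides was at the median 5.91 times the coding length. With reads divided by coding length in place of it, the range was 107-fold, RPL22 was the highest and RPS28 the lowest, and the rank correlation of both orders was 0.80 over the 77 genes, which share the same reads. Ribosomal protein genes have many processed pseudogenes, near-identical copies that can take or lend reads. Of 1132 annotated pseudogenes of the members, 425 had a row in the table, and 67 members had at least 1 of these. How reads with several matches were treated is not given in the sources used here, and so the levels of these 67 genes are uncertain to that extent. On the same strand, 29 members shared exon bases with another listed gene, 7 of them over 10% of their exon bases, namely RPL17 (32.7%, with the readthrough gene RPL17-C18orf32), RPS10 (28.8%, with RPS10-NUDT3), RPS2 (20.1%), RPL36 (17.6%), RPL26 (14.6%), RPL13A (13.7%, with a small nucleolar RNA) and RPL7A (12.7%, with a small nucleolar RNA).

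With miR-217 mimic, most ribosomal protein genes were slightly higher than with mimic NC, but none passed the test, which was fitted without a replicate block. The difference was above 0 for 67 of the 77 members, 38 of 46 in the large subunit and 29 of 31 in the small subunit, where 44.4% of all genes tested were above 0 and 55.6% below. The median log2 fold change was 0.070 for the members, 0.062 for the large subunit and 0.078 for the small subunit, against -0.017 for all genes tested. These subunit directions turned with 1 library left out: without mimic NC replicate 2 the small subunit had 15 of 31 above 0 and a median of -0.0024, and without miR-217 mimic replicate 1 the large subunit had 23 of 46 and a median of -0.0049. In limma, 0 members had an unadjusted p under 0.05 in either direction, where 0.483% of all genes were higher and 0.707% lower at that threshold, and 0 members passed an adjusted p of 0.05. The lowest unadjusted p of a member was 0.141, and limma voom on the recovered reads also gave 0 members. With a replicate block, RPS21 (higher) and RPL38 (lower) had an unadjusted p under 0.05 (2.6%, against 7.54% of all genes). The block in limma voom gave 6 members (7.79%, against 9.09%), and 0 passed after adjustment in either. With 2 libraries a group the smallest two-sided p of an exact permutation test is 0.33. In the fit without a block, the median standard error of a member's log2 fold change was 0.14. That was above the size of most of these differences, since 47 of the 77 lay within 0.1 of 0. This standard error includes the spread between the numbers.

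The libraries of both groups did not overlap in 21 members. Both miR-217 mimic libraries were above both mimic NC libraries in 20 members (26.0%), against 9.72% of all genes tested, and below them in 1 member, RPL38, against 13.5% of all genes. The 20 differed by 2.46% to 22.1% in mean RPKM. Within number 1, miR-217 mimic was higher in 73 of 77 members, with a median log2 fold change of 0.071, where 45.4% of all genes were higher. Within number 2 it was higher in 52 of 77 members, with a median of 0.047, where 45.9% were. In both numbers 50 members were higher, against 25.4% of all genes, and 2 were lower, RPL23 and RPL38, against 34.1% of all genes. The size of the median turned on single libraries: it was 0.0084, with 41 of 77 members higher, without miR-217 mimic replicate 1, and 0.139 without miR-217 mimic replicate 2. Without mimic NC replicate 1 it was 0.102, and without mimic NC replicate 2 it was 0.032.

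**Figure D2:**
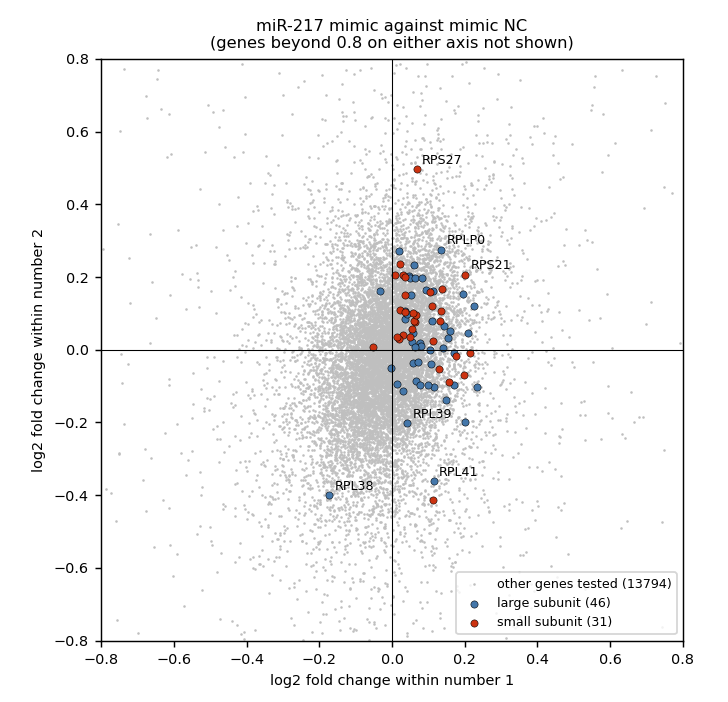
Log2 fold change of miR-217 mimic against mimic NC within number 1 (horizontal axis) and within number 2 (vertical axis), with each point a gene, grey for the other genes tested and coloured for the 46 large and 31 small subunit genes. Of the 77 members, 73 lie right of 0 and 52 lie above 0, and RPL38 lies lower left.

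RPS27, a zinc-binding protein of the small subunit at chr1:153990759-153992150, had the highest mimic difference. Its level was 129 and 115 RPKM with mimic NC against 135 and 163 RPKM with miR-217 mimic, so that the groups did not overlap and miR-217 mimic replicate 2 was the highest. The log2 fold change was 0.28 (SE 0.16), and it was 0.07 within number 1 and 0.50 within number 2. RPLP0, which anchors the stalk that recruits translation factors, had 102 and 101 RPKM with mimic NC against 112 and 123 RPKM with miR-217 mimic, which gave a log2 fold change of 0.20 (SE 0.13). The 2 mimic NC libraries of RPLP0 were closer to each other than to either miR-217 mimic library.

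RPS21, a small subunit protein at chr20:62387116-62388520, had 35.7 and 33.3 RPKM with mimic NC against 41.2 and 38.6 RPKM with miR-217 mimic, and differed by 0.20 within number 1 and by 0.21 within number 2. This gene had nearly the same difference in both pairs of libraries. RPL28 was at 10.1 and 9.93 RPKM with mimic NC against 11.7 and 11.2 RPKM with miR-217 mimic, which gave a log2 fold change of 0.17 (SE 0.11). RPL36, 17.6% of whose exon bases are shared, had 35.6 and 34.6 against 41.7 and 37.7 RPKM. In both genes the groups did not overlap, and neither difference passed the test.

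At the other end stood RPL38, a large subunit protein whose loss in mice alters the translation of Hox mRNAs, at chr17:74203582-74210655. It had 118 and 108 RPKM with mimic NC against 105 and 81.4 RPKM with miR-217 mimic, which gave a log2 fold change of -0.29 (SE 0.17). Both miR-217 mimic libraries were below both controls, and miR-217 mimic replicate 2 was the lowest. RPL41, which encodes the shortest ribosomal protein, had 89.0 and 85.0 RPKM with mimic NC against 96.4 and 65.9 RPKM with miR-217 mimic. RPL39, a protein of the exit tunnel, had 39.6 and 32.2 against 40.7 and 27.9 RPKM. In both genes miR-217 mimic replicate 1 was the highest library and miR-217 mimic replicate 2 the lowest, and their log2 fold changes were -0.12 and -0.08.

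Other members named for a role beyond the ribosome, in disease or in the stalk did not pass the test either. RPL11 was at 132 and 126 RPKM with mimic NC against 140 and 127 RPKM with miR-217 mimic, and RPL5 (above) differed by a log2 fold change of 0.06. RPS19, the gene most often mutated in Diamond-Blackfan anaemia, had 23.0 and 20.5 against 23.2 and 21.1 RPKM. RPLP1 and RPLP2, the partners of RPLP0 in the stalk, had log2 fold changes of 0.01 and 0.09. In each of RPL11, RPS19, RPLP1 and RPLP2 the groups overlapped. In RPL36A, the parent of the paralog RPL36AL, they did not, with 124 and 113 RPKM with mimic NC against 132 and 127 RPKM with miR-217 mimic and a log2 fold change of 0.13 (SE 0.13).

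Between the replicate numbers, most ribosomal protein genes were lower in number 2. The difference was below 0 for 58 of 77 members, 33 of 46 in the large and 25 of 31 in the small subunit, where 55.8% of all genes tested were below 0 and 44.2% above. The median log2 fold change was -0.098 for the members, -0.087 for the large subunit and -0.13 for the small subunit, against -0.035 for all genes. With 1 library left out, the median ranged from -0.14 to -0.015 in the large subunit and from -0.19 to -0.088 in the small subunit. Without miR-217 mimic replicate 1 the large subunit had 21 of 46 above 0 (45.7%) and a median of -0.015, against 43.5% and -0.041 for all genes. In limma with the group as a second term, 17 members (22.1%) were lower at an unadjusted p under 0.05, close to the 19.6% of all genes, and 0 were higher, where 13.8% of all genes were. In either direction this was 22.1% of the members and 33.4% of all genes, and with no filter on low values it was 23.4% and 17.4%, so that no difference is read from it. After adjustment over all genes 1 member was lower, against 4.69% of all genes lower and 3.69% higher. Both libraries of number 2 were below both of number 1 in 38 members (35.5% of all genes were) and above them in 8 members (26.9% of all genes were).

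The same direction was seen in each group. Number 2 was higher in 24 of 77 members within mimic NC (44.9% of all genes were), with a median log2 fold change of -0.066, and in 19 of 77 within miR-217 mimic (45.1% of all genes were), with a median of -0.12. In both groups 46 members were lower, where 42.6% of all genes were, and 12 were higher, where 32.7% were. The median absolute difference of a member between the replicates of a group was 0.11 within mimic NC and 0.14 within miR-217 mimic, and between the groups it was 0.077 within number 1 and 0.098 within number 2. A typical member thus differed at least as much between replicates as between treatments. The libraries of number 2 were also the shallower in each group, with 47374957 and 32635814 reads against 57933183 and 53356283 in number 1. Mitochondrial genes took 3.97% and 4.78% of their reads against 3.56% and 3.58%. The part of depth and of mitochondrial reads in these differences was not tested. The count of 17 was 4 (5.19%, against 14.7% of all genes) without miR-217 mimic replicate 1 and 6 (7.79%, against 13.2%) without mimic NC replicate 1. It was 29, 26 of them lower, with limma voom (37.7%, against 37.9% of all genes).

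**Figure D3:**
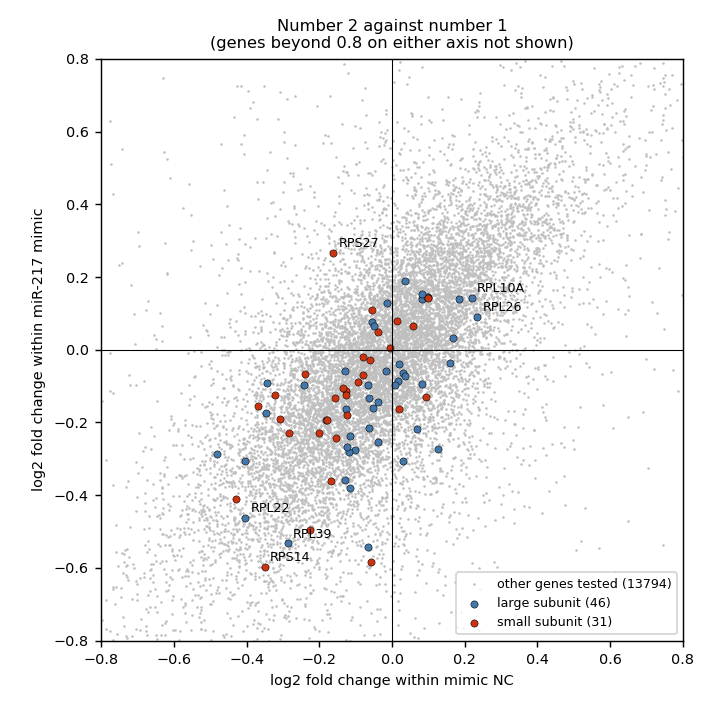
Log2 fold change of number 2 against number 1 within mimic NC (horizontal axis) and within miR-217 mimic (vertical axis), with each point a gene, grey for the other genes tested and coloured for the 46 large and 31 small subunit genes. Of the 77 members, 46 lie at the lower left, among them RPS14, RPL22 and RPL39, and 12 lie in the upper right.

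RPS14, whose loss on 1 chromosome is tied to a myelodysplastic syndrome, had the lowest value of the number comparison. It had 24.7 and 27.7 RPKM in number 1 and 19.2 and 18.0 RPKM in number 2 (mimic NC first), a log2 fold change of -0.47 (SE 0.09, limma adjusted p = 0.0528). RPL22, at chr1:6181269-6209389, had 394 and 416 RPKM in number 1 and 298 and 302 RPKM in number 2, a log2 fold change of -0.43 (SE 0.08, limma adjusted p = 0.0511). Number 2 was below number 1 in both groups for each of these genes, and neither passed the adjusted threshold. RPL39 had a log2 fold change of -0.41, and RPL7A had -0.36, from 310 and 321 RPKM to 234 and 260 RPKM.

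Higher values in number 2 reached 0.18 on the log2 scale, and 13 of the 19 higher members were of the large subunit, which holds 46 of the 77. RPL10A, of the movable stalk at the site where tRNA leaves, had 68.1 and 75.3 RPKM in number 1 and 79.5 and 83.2 RPKM in number 2, a log2 fold change of 0.18 (SE 0.07, limma adjusted p = 0.158). RPL26, with 256 and 262 against 302 and 279 RPKM, and RPL23, with 55.4 and 55.3 against 63.1 and 61.0 RPKM, each had a log2 fold change of 0.16, and RPL5 had 0.12. In these 4 genes both libraries of number 2 were above both of number 1. Of the 8 members placed so, RPS23 was the single small subunit gene.

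Ribosomal proteins with other names were read beside the members. FAU, a fusion of a ubiquitin-like part with a ribosomal protein, and RACK1, a scaffold of the small subunit, had mimic log2 fold changes of -0.01 and 0.09. FAU fell between the numbers, from 96.9 and 94.0 to 71.1 and 72.1 RPKM, with a log2 fold change of -0.41 (limma adjusted p = 0.0461), while RACK1 had 0.14.

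Of the 6 paralogs tested, 0 had an unadjusted limma p under 0.05 in the mimic comparison, and between the numbers 2 were higher and 2 lower at that threshold. Here and for the lists that follow, 13.8% of all genes tested were higher and 19.6% lower between the numbers at that threshold. RPL22L1, the copy of RPL22, rose from 4.56 and 5.06 to 6.80 and 10.1 RPKM (log2 fold change 0.68, limma adjusted p = 0.0477), while RPL22 was lower in number 2. RPL36AL was at 377 and 375 RPKM in number 1 and 270.9 and 284 RPKM in number 2, a log2 fold change of -0.44 (limma adjusted p = 0.0504), and RPL36A, its parent, had -0.09 from 124 and 132 to 113 and 127 RPKM. RPS27L had -0.37 where RPS27 had 0.05. These differences between copy and parent were not tested, and near-identical copies can share reads.

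Other TOP mRNAs were taken from a fixed list of 15 translation genes. In the mimic comparison 11 of 15 were higher with a median log2 fold change of 0.050 and 0 had an unadjusted p under 0.05, and the median was -0.019 without miR-217 mimic replicate 2. PABPC1, the cytoplasmic poly(A)-binding protein, was highest with 299 and 314 against 344 and 404 RPKM, a log2 fold change of 0.28 (SE 0.15). In the number comparison 6 were higher and 2 lower at an unadjusted p under 0.05, with a median of 0.13, a sign opposite to that of the members. NPM1, a nucleolar chaperone, had the highest difference, from 1333 and 1445 to 1721 and 2071 RPKM, and EIF4B, a helper of the helicase that unwinds mRNA, the lowest, from 170.1 and 167 to 136 and 123 RPKM.

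Other genes with the tract at a listed start had medians near those of all genes. The 587 such genes tested had median log2 fold changes of -0.013 in the mimic and -0.029 in the number comparison, against -0.017 and -0.035 for all genes tested. Among the members, the 46 with the tract had medians of 0.070 and -0.13, and the 16 without it at a listed start had 0.099 and -0.075. Some of the 16, such as RPL10A and RPL17, have a run of C and T a few bases from the listed start.

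Ribosome biogenesis genes, the factors that build the subunits, were mostly higher with miR-217 mimic, as the members were, and mostly higher in number 2, where the members were mostly lower. Of 50, 42 were higher with miR-217 mimic, with a median log2 fold change of 0.10, 10 without overlap and higher (9.72% of all genes were) and 0 at an unadjusted p under 0.05. The median was -0.032 without miR-217 mimic replicate 2 and -0.021 without mimic NC replicate 1. NOP16 was highest, from 29.01 and 29.3 to 31.6 and 37.7 RPKM. Between the numbers 28 were higher and 2 lower at an unadjusted p under 0.05, 7 rose after adjustment, where 3.69% of all genes did, and the median was 0.23. DKC1, the pseudouridine synthase of the nucleolus, rose from 80.2 and 90.4 to 143 and 154 RPKM (log2 fold change 0.79, limma adjusted p = 0.0230).

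Of 98 mitochondrial ribosomal protein genes taken by symbol (MRPL or MRPS and a number), with pseudogenes not removed, 82 were tested. Their medians were 0.0064 and -0.0070, and 14 were higher and 13 lower between the numbers at an unadjusted p under 0.05, while 0 were called in the mimic comparison. MRPL40 had the highest mimic difference (0.22) and MRPL41 the lowest (-0.35). Between the numbers the extremes were MRPL27 (-0.54) and MRPS31P5 (0.62), the second of which is a pseudogene by its name.

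Genes that regulate TOP mRNAs, 15 in number, had medians of -0.016 and 0.043. MYC, which drives ribosome production, was at 24.2 and 24.6 RPKM with mimic NC against 26.3 and 31.3 RPKM with miR-217 mimic, and the difference of 0.23 (log2, SE 0.14) did not pass. EIF4EBP1, the mTORC1 substrate that holds back cap-dependent translation, rose between the numbers from 85.9 and 81.3 to 217 and 181 RPKM (log2 fold change 1.23, limma adjusted p = 0.0205), and EIF4EBP2 was lower at -0.43. From a separate list, on how free ribosomal proteins signal through MDM2, CDKN1A, an inhibitor of the cell cycle, had -0.13 in the mimic comparison and MDM4, a relative of MDM2, had 0.12.

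**Figure D4:**
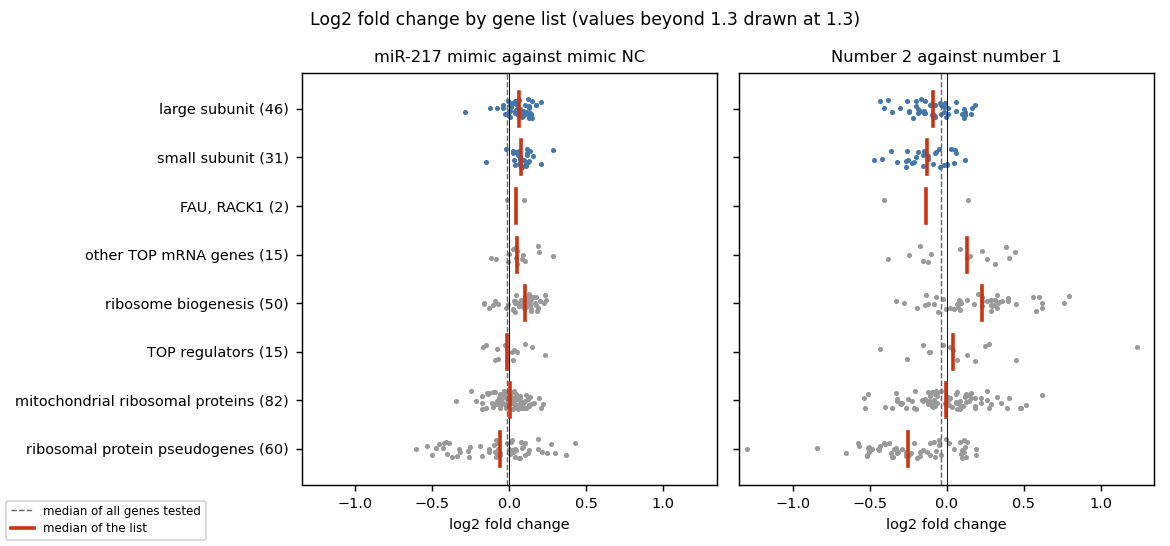
Log2 fold change of each gene by list, with miR-217 mimic against mimic NC on the left and number 2 against number 1 on the right. Points are genes, red bars are the medians of the lists, the dashed line is the median of all genes tested, and the number of genes stands in brackets. The medians of the large and the small subunit are 0.062 and 0.078 on the left and -0.087 and -0.13 on the right, and ribosome biogenesis stands at 0.10 and 0.23.

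The share of all reads that fell on the members was 2.73% and 2.65% with mimic NC against 2.89% and 2.72% with miR-217 mimic. The 95% Wilson intervals reached at most 0.0056 percentage points to either side and cover counting error only, as reads without molecular identifiers are not independent molecules. The groups overlapped, and the mean difference was 0.116 percentage points. Large subunit genes took 1.97%, 1.92%, 2.08% and 1.97% and small subunit genes 0.762%, 0.724%, 0.815% and 0.754%, in the order mimic NC 1 and 2 and miR-217 mimic 1 and 2. Ribosome biogenesis genes took 1.23% and 1.32% in number 1 and 1.66% and 1.84% in number 2.

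**Figure D5:**
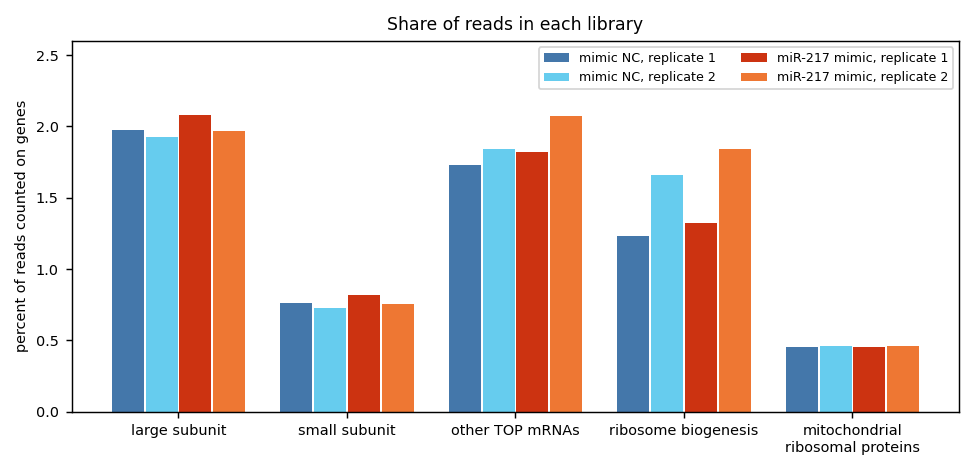
Share of the reads counted on genes that fell on 5 gene lists, in percent, with a bar for each of the 4 libraries. Large subunit genes lie between 1.92% and 2.08%, and ribosome biogenesis genes are higher in both replicates numbered 2.

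Whether members hold sites for miR-217 was read from their annotated 3′UTRs, since a microRNA binds mRNA mainly through its bases 2 to 8, the seed. The mature sequence is shown with its seed in capitals, from RefSeq (GRCh38.p14, chr2:55983020-55983042, minus strand).
hsa-miR-217-5p: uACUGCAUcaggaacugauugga

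The matching site ATGCAGT, read on the strand of the transcript alone, was in the longest annotated 3′UTR of 3 of 77 members (3.90%), against 14.5% of the 9913 genes tested that have a 3′UTR. The members' 3′UTRs had a median length of 493 bases, while that of all these genes was 1326 bases. Among the 2161 genes with a 3′UTR of at most the members' median length 1.94% held a site. The 3 member sites all lie in 3′UTRs longer than that, of 507 to 6828 bases. The 3.90% counts members of every 3′UTR length, so the 1.94% is not a like share for it. The 3 sites are printed with 8 bases on either side and the match in capitals.
RPS29 (bases 2566 to 2572 of a 3′UTR of 6828 bases): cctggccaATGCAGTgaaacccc
RPL13 (bases 3646 to 3652 of 3786): aaactattATGCAGTagtttcga
RPL18 (bases 204 to 210 of 507): tggggagcATGCAGTtcaccggc

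In RPL13 the match is followed by A, the base that makes an extended site. None of the 3 was lower with miR-217 mimic. RPS29 was at 1.96 and 1.80 RPKM with mimic NC against 2.00 and 1.86 RPKM with miR-217 mimic, RPL13 at 27.5 and 24.1 against 28.7 and 24.95 RPKM, and RPL18 at 8.67 and 6.62 against 8.80 and 8.19 RPKM. Their groups overlapped, and their log2 fold changes were 0.02, 0.05 and 0.15. The sites of RPS29 and RPL13 lie far into long annotated 3′UTRs, and which 3′UTR these cells use was not measured.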

How the data were processed

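RNA-seq was performed on 4 libraries, 2 with mimic NC and 2 with miR-217 mimic, in which TRIzol RNA was made into stranded mRNA libraries. The authors deposited RPKM values for 32955 genes, and the submitters' processing notes name Trimmomatic 0.36, featureCounts of Subread 1.5.1, edgeR 3.12.1 and hg38. The aligner, the annotation, the strand setting and the treatment of reads with several matches are not given in the sources used here, so that overlapping and antisense genes could share reads. RPKM multiplied by gene length is a share of the library. With each library's total estimated from the steps of the lowest values, these shares gave whole reads for 100% of nonzero values (within 0.01 read).

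Log2(RPKM + 1) of the 13871 genes with a mean of at least 1 RPKM was tested with limma 3.58.1 in R 4.3.3 (lmFit, eBayes with trend), two-sided, with Benjamini-Hochberg adjustment over all genes tested. Fold changes on that scale understate the change of low genes. The mimic comparison was fitted without a block and the number comparison with the group as a second term. Lists were described by counts and medians, with no test of a list. A test for the RNA-seq in particular is not given in the sources used here. The fit was tested on simulated data with changes larger than those of the members. In the simulated mimic comparison the numbers did not differ. That test therefore does not show how the fit fares with differences of the members' size or with such a shift.

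The members and lists were chosen with earlier results of these data known. Members were named for being among the 4 highest or 3 lowest in level of a subunit, the 4 highest or lowest in either comparison, for a set role (RPL5, RPL11, RPS6, RPS19, RPL22, RPS27, RPL36A and the stalk) or for sharing over 10% of their exon bases. From other lists the highest and the lowest gene were named. Other genes (RPL13 and RPL18 for their sites, RPS23, the paralogs' parents) are named because a count of few genes includes them, and CDKN2A was added after the data were seen. Some genes that these rules name are not reported here. Alternatives were another pseudocount (0.1), no filter, a minimum of 5 RPKM, 3 other scalings, limma voom on recovered reads, no variance trend, a replicate block, no group term and each library left out. Sequences were from RefSeq tables and GENCODE 29, and figures were made with matplotlib 3.10.9 in Python 3.11.15.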

Additional observations from a re-analysis of the deposited data

Results flagged for a closer look

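In RPL41, RPL23A, RPS14 and RPL26 the mimic difference had one sign in number 1 and the other in number 2. They were listed because each difference was above 2 standard errors of counting, which at these depths leaves out the spread between libraries and so does not show that the signs differ beyond it. The log2 fold changes of miR-217 mimic against mimic NC in number 1 and in number 2 were 0.115 and -0.362 in RPL41, 0.114 and -0.102 in RPL23A, 0.156 and -0.09 in RPS14, and 0.03 and -0.114 in RPL26. In RPS27 the difference between the numbers changed sign between the groups, with log2 fold changes of -0.162 within mimic NC and 0.267 within miR-217 mimic. Each of these values compares 1 library with 1 library, so that the difference between the 2 pairs was not tested.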

How the results depend on the processing

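Every member had at least 270 reads in each library, and with 2 libraries a group the median standard error of a mimic log2 fold change was 0.14 without a block. Over all 77 members no direction of the mimic or number median was reversed under any alternative run, while by subunit the mimic median was -0.0024 in the small subunit without mimic NC replicate 2 and -0.0049 in the large subunit without miR-217 mimic replicate 1. The members with an unadjusted p under 0.05 in the mimic comparison numbered 0 without a block, 2 with the replicate block (RPS21 higher and RPL38 lower; 2.6%, against 7.54% of all genes) and 6 with the replicate block in limma voom, which was added after seeing the data (7.79%, against 9.09%). Numbers shared by the labels need not pair the libraries, although the number differences of both groups correlated at 0.68 over the genes tested, and there are only 2 pairs. The mimic median was 0.096 with median centring. With 1 library left out, where the lone library is assumed to vary like the others, the mimic median ranged from 0.0084 to 0.139, the members higher from 41 to 71, those without overlap from 26 to 65 higher (against 25.7% to 30.4% of all genes) and from 2 to 19 lower (against 28.5% to 40.9% of all genes), since a lone library overlaps less often. In the number comparison the same omissions gave 4 to 23 members at an unadjusted p under 0.05 (against 13.2% to 43.5% of all genes), medians of -0.15 to -0.058, 14 to 30 members higher, 8 to 19 without overlap and higher (against 32.8% to 38.5% of all genes), 39 to 56 without overlap and lower (against 41.5% to 49.3%), and 0 to 11 at an adjusted p under 0.05 (against 0.0649% to 28.3%). Limma voom gave 29 members at an unadjusted p (37.7%, against 37.9% of all genes) and 10 at an adjusted p under 0.05 (13%, against 23.6%). That adjusted count, 1 as reported, was 0 with no filter (against 0.0091% of all genes), quantile normalization (8.1%) and no variance trend (5.83%). It was 3 (3.9%) with median centring (against 11% of all genes), totals without members and mitochondrial genes (10.7%) and no group term (7.04%). With a minimum of 5 RPKM it was 6 (8.0%, against 21.0% of all genes), and the cause of these moves was not tested. Single named genes were also followed under the alternatives that keep every library. Of these values, 1111 kept their direction and side of the unadjusted threshold, 43 newly passed it, 14 no longer did and 9 changed direction. With 1 library left out, 89 values of these genes changed direction, although fewer values were fitted, and the rest kept it.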

Other observations

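Pseudogenes of ribosomal proteins were lower in number 2 in 47 of 60, where 55.8% of all genes tested were, and lower with miR-217 mimic in 33 of 60, where 55.6% were. Of 427 listed these 60 were tested, with a median log2 fold change of -0.062 with miR-217 mimic (0.043 without miR-217 mimic replicate 2 and 0.0026 with a minimum of 5 RPKM), 1 higher and 1 lower at an unadjusted limma p under 0.05, and of -0.25 between the numbers, 17 lower and 0 higher at that threshold, where 19.6% of all genes were lower and 13.8% higher. RPS24P17 had 119 and 85.5 RPKM in number 1 and 17.0 and 9.78 RPKM in number 2, a log2 fold change of -2.87 (limma adjusted p = 0.0112), while its parent RPS24 had 73.7, 71.7, 74.8 and 77.4 RPKM in mimic NC 1 and 2 and miR-217 mimic 1 and 2. With miR-217 mimic, the pseudogene past that threshold and higher was RPL39P5, at 1.499 and 1.13 RPKM with mimic NC against 1.84 and 2.39 RPKM, and the lower was RPL9P7, at 4.29 and 4.99 against 3.23 and 3.22 RPKM. RPL9P7 was named after its values were seen, and both had a limma adjusted p of 1.00. All listed pseudogenes together took 0.0337% to 0.0458% of the reads of a library.

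Over the 77 members, the mimic log2 fold change had a rank correlation of 0.24 with coding length and 0.31 with the GC content of the coding sequence, and the number log2 fold change had 0.15 and -0.21. The points share the same 4 libraries, and these values are given as a description.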
